A study of Mus musculus with 8 samples.

Results

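The genes described here are the ADAM, ADAMTS, ADAMTSL and MMP genes and the TIMP inhibitors of the mouse, in RNA sequencing libraries of sorted distal convoluted tubule fragments. Members were all protein-coding genes whose symbol begins with 1 of these family names and a digit, which gave 83 of the 42416 genes counted. They comprised 33 ADAM, 19 ADAMTS, 5 ADAMTSL, 22 MMP and 4 TIMP genes. The study compared 4 Control libraries with 4 libraries labelled KO, each from another numbered animal, to examine calcineurin in this nephron segment. All animals, Control included, carried 1 copy of a Cre transgene named for the NaCl cotransporter (NCCcre Tg/+) and 1 copy of a Tomato reporter (TOMATO Tg/+). The Cnb1fl allele was Tg/Tg in KO and wt in Control, and Cnb1 is the calcineurin B subunit gene Ppp3r1. Every animal received tamoxifen by gavage at 2 mg per day for 5 days and was studied 3 weeks later, and a library came from 1000 sorted fragments. The labels give no age for the animals.

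Many ADAMs are membrane proteases that release the outer parts of other membrane proteins, a process called shedding, while others lack the protease site. ADAMTS enzymes are secreted proteases that cut proteoglycans, procollagens and microfibril proteins, and matrix metalloproteinases (MMPs) cut collagens, laminins and many other matrix proteins. ADAMTS-like (ADAMTSL) proteins resemble the accessory part of ADAMTS enzymes, lack the protease domain and bind the fibrillin microfibrils of the matrix. TIMPs block MMPs, and TIMP3 also blocks ADAM17 and several ADAMTS enzymes. In the kidney some of these genes are known from interstitial, vascular and glomerular cells, and some of their products from the tubule basement membrane.

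Whether a gene encodes the protease site can be read in the coding sequence. The active site of these proteases is a run of 11 codons in which 3 histidines hold the zinc ion beside a glutamate, with a glycine before the last histidine. This zinc-binding consensus of the metzincin proteases was searched in frame in the coding sequences of GENCODE vM21. It was present in 20 of 33 ADAM, 13 of 19 ADAMTS and 22 of 22 MMP genes, and in 0 of 5 ADAMTSL and 0 of 4 TIMP genes. When any codon was allowed at the glycine, all 19 ADAMTS genes held it, and ADAMTSL and TIMP genes still gave 0. The following stretches show the site in the most abundant ADAM, a main sheddase, the ADAMTS gene that changed, a member of each glycine class and a membrane MMP. Each is 33 bases of the sense strand, 5′ to 3′, with the codons of the histidines, the glutamate and, where present, the glycine in capitals.
Adam9: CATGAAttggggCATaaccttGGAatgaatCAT
Adam17: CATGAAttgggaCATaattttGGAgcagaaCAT
Adamts16: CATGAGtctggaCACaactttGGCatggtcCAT
Adamts3: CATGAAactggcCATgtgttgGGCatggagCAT
Adamts1: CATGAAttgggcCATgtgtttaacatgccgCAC
Mmp14: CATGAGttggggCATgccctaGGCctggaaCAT
On GRCm38 the Adam9 site lies at chr8:24990326-24990358 (minus strand), that of Adam17 at chr12:21336732-21336764 (minus) and that of Mmp14 at chr14:54437627-54437659 (plus), each within 1 exon. The sites of Adamts16 (chr13:70787149-70791812, minus), Adamts3 (chr5:89707433-89707818, minus) and Adamts1 (chr16:85799191-85799545, minus) span an intron, which the printed coding bases leave out. Adamts1 has the asparagine codon AAC at the place of the glycine. Of the 30 members tested below, 19 held the site with its glycine. Adamts1, Adamts9 and Adamts15 held it with another codon at that place, and Adam11, Adam22, Adam32, the 3 ADAMTSL genes and the 2 TIMP genes lacked it in either form.

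Library totals ranged from 18161442 to 45150953 counts. Markers of the labelled segment were abundant, their sum lying between 9317 and 13432 CPM (a gene's counts relative to the library's TMM-scaled total) in Control and between 4965 and 8993 CPM in KO; of the 7 markers, Tfap2b rose and Pvalb, Trpm6, Calb1 and Klhl3 fell. The targeted Ppp3r1 averaged 97.4 ± 9.92 CPM over the Control libraries and 86.2 ± 10.8 CPM over the KO libraries (SD, n = 4 each), and these overlapped, so gene-level counts do not check the genotype labels. Marker sums of other cells were also measurable. The 6 thick ascending limb markers, most of whose sum is Umod, summed to 8979 to 13963 CPM in Control and 4338 to 7142 CPM in KO, and proximal tubule markers to 1108 to 4101 and 1140 to 2609 CPM. Dividing-cell markers summed to 7.12 to 9.77 and 23.7 to 79.0 CPM, and all 4 rose. The 6 connecting tubule and principal cell markers summed to 252 to 457 and 103 to 262 CPM; 0 passed in edgeR, with log2 fold changes from -1.61 to -0.82 and an unadjusted p under 0.05 in all 6. The 10 macrophage and leukocyte markers summed to 18.7 to 25.1 and 27.6 to 79.4 CPM. Of these 6 were tested and 0 passed: Csf1r, at 72.3 CPM in KO replicate 1, had a log2 fold change of 2.21 ± 0.52 (edgeR adjusted p = 0.0638) and Cd74 one of -0.73 ± 0.50. Fibroblast and mural markers were low, at 7.9 to 17.3 and 2.16 to 10.8 CPM, with Lum at 0 in all libraries. In bulk libraries such as these, fewer cells of a type and less RNA per cell cannot be told apart.

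In KO, Adamtsl3 and Adamtsl2 fell and Adamtsl4 rose, and among the proteases Adamts16 rose. Of the 83 members, 30 had at least 10 counts in at least 4 libraries and were tested, with edgeR's quasi-likelihood test and Benjamini-Hochberg adjustment over all 14444 genes at a threshold of 0.05. Of these 30, 2 rose and 2 fell and 26 did not pass. Over all genes 2.06% passed, 1.23% higher and 0.838% lower, against 13.3% of the tested members, 6.67% in each direction. The median log2 fold change was 0.09 over the tested members and -0.02 over all genes. The 298 calls over all genes were 177 higher and 121 lower, and 241 higher and 89 lower when library totals were used without TMM factors. By family, 3 of 3 tested ADAMTSL genes passed, 1 of 9 ADAMTS genes, and 0 of 10 ADAM, 0 of 6 MMP and 0 of 2 TIMP genes, the last 3 counts being 0 with DESeq2 and limma-voom as well. At an unadjusted p under 0.05 there were 10 members, against 13.9% of all genes; 4 of the 10 were ADAM genes and 0 were MMP or TIMP genes. With DESeq2 2 members rose and 4 fell, the additional pair being Adamts3 and Adamts7, where 5.22% of all genes passed, 2.95% higher and 2.27% lower. With limma-voom 2 rose and 2 fell, where 3.54% of all genes passed, 1.96% higher and 1.59% lower. The ranges of the groups were separate in 9 of the 30, 4 higher and 5 lower in KO, against 9.40% of all genes tested, 5.60% higher and 3.80% lower.

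**Figure D1:**
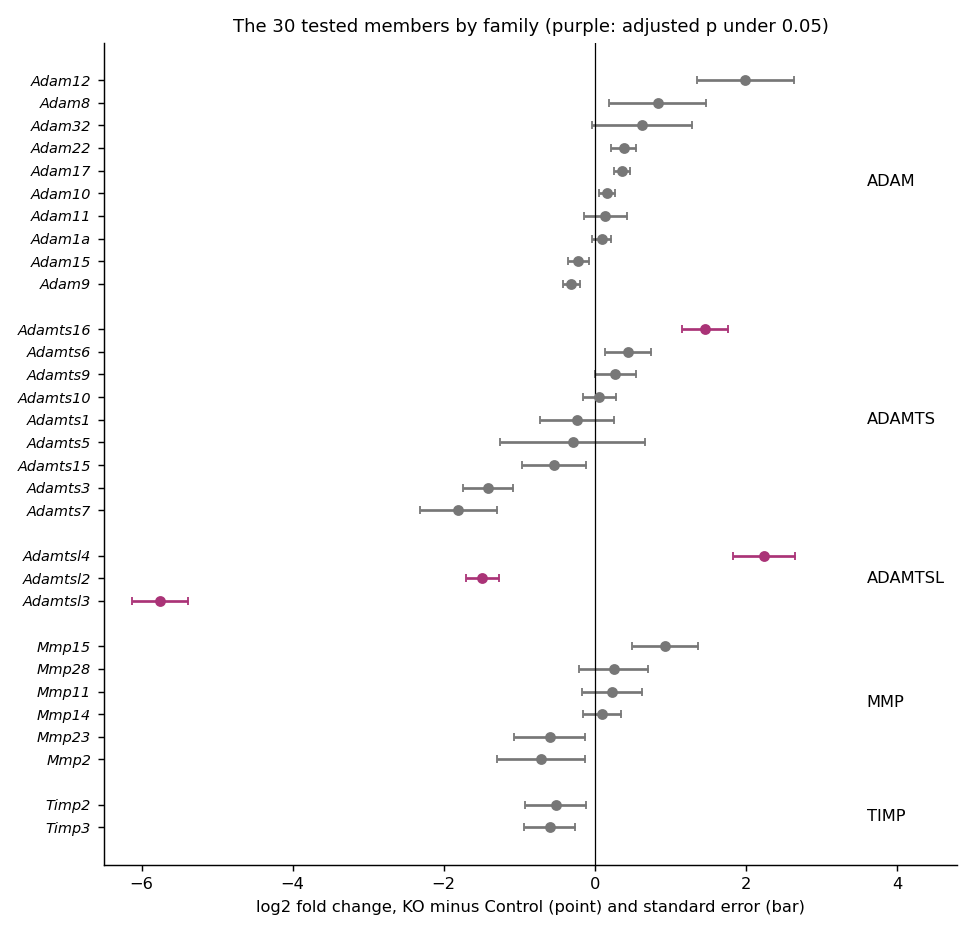
Log2 fold change, KO minus Control, with its standard error for each of the 30 tested members, grouped by family; purple marks an adjusted p under 0.05. All 3 ADAMTSL genes and Adamts16 are marked, from -5.76 for Adamtsl3 to 2.24 for Adamtsl4, and the ADAM genes lie between -0.31 and 1.99.

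Adamtsl3 (ENSMUSG00000070469, GRCm38 chromosome 7, 82335694 to 82614450, plus strand) encodes a secreted matrix glycoprotein. It stood at 8.0, 7.15, 6.79 and 14.0 CPM in Control replicates 1 to 4 and at 0.144, 0.116, 0.157 and 0.251 CPM in KO replicates 1 to 4. All 4 KO libraries were far below all Control libraries, with 19 counts in total against 871. This is a log2 fold change of -5.76 ± 0.37 (SE, 4 libraries a group, edgeR adjusted p = 0.000355). It kept its call under all 18 alternative settings, between -6.01 and -5.46. Control replicate 4 was the highest Control library, and without it the value was -5.46.

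Adamtsl2 (ENSMUSG00000036040, chromosome 2, 27079379 to 27108981, plus strand) encodes a protein that binds fibrillin-1 and the latent TGF-beta binding protein LTBP1. It stood at 50.6, 37.8, 45.4 and 56.8 CPM in Control replicates 1 to 4 and at 22.3, 13.7, 20.1 and 11.3 CPM in KO replicates 1 to 4. The groups did not overlap, and KO replicate 4 was lowest. Its log2 fold change was -1.49 ± 0.22 (SE, edgeR adjusted p = 0.0142). The call was lost without Control replicate 4 (adjusted p = 0.054), without KO replicate 2 (0.0584) and in a fit blocked by animal-number series (0.059), while the log2 fold change lay between -1.66 and -1.31 over the 18 alternatives. Of the 6 thick ascending limb markers, Umod fell (log2 -1.19 ± 0.25, adjusted p = 0.0413), at 9359, 6029, 8901 and 10951 CPM in Control and 4548, 4039, 4422 and 2427 CPM in KO. The other 5 did not pass and overlapped between groups, from log2 -0.77 ± 0.35 for Slc12a1 to -0.04 ± 0.13 for Kcnj1. The part of the thick ascending limb in the Adamtsl2 values was not tested.

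Adamtsl4 (ENSMUSG00000015850, chromosome 3, 95676201 to 95687917, minus strand), whose product binds fibrillin-1 and anchors the lens of the eye, moved the other way and from a low level. It stood at 0.683, 0.962, 0.418 and 0.451 CPM in Control replicates 1 to 4 and at 2.35, 3.93, 1.65 and 4.36 CPM in KO replicates 1 to 4. No KO library overlapped a Control library, and KO replicates 2 and 4 were highest. The log2 fold change was 2.24 ± 0.41 (SE, edgeR adjusted p = 0.0273). Dividing-cell markers summed to 39.8, 57.4, 23.7 and 79.0 CPM in KO replicates 1 to 4, the same order of libraries as Adamtsl4. In Control replicates 1 to 4 the sums were 7.12, 8.3, 9.77 and 8.96 CPM, another order than that of Adamtsl4. The part of dividing cells in the result was not tested. The call was lost without Control replicates 1, 3 or 4 (adjusted p = 0.0609, 0.084 and 0.0974), without KO replicates 2 or 4 (0.0952 and 0.0749) and with the block (0.145).

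**Figure D2:**
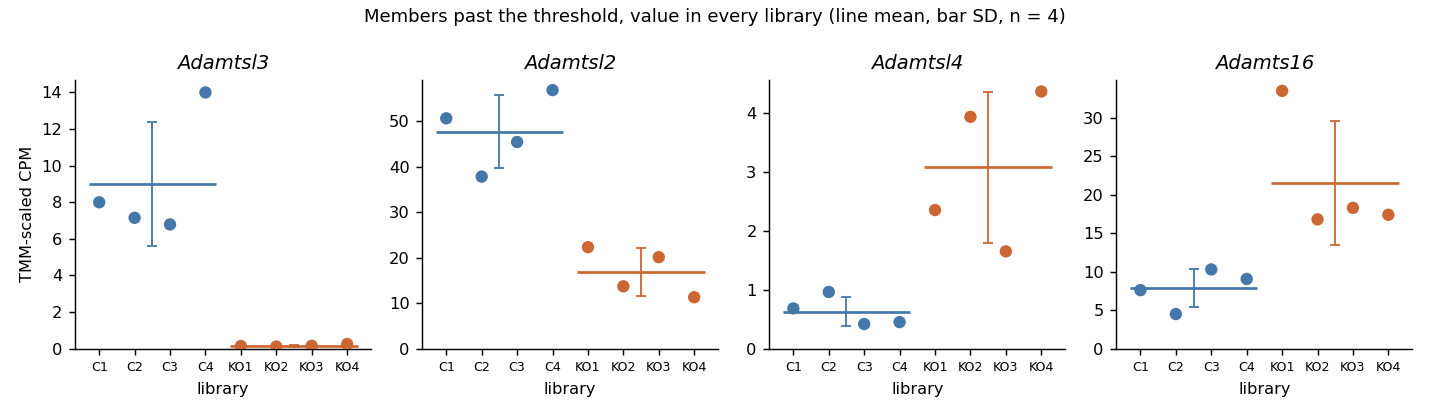
TMM-scaled CPM of the 4 members past the threshold in each library, C1 to C4 for Control and KO1 to KO4 for KO; lines are means and bars SD (n = 4). In each panel the KO libraries lie wholly below (Adamtsl3, Adamtsl2) or wholly above (Adamtsl4, Adamts16) the Control libraries, and KO1 stands at 33.5 CPM in Adamts16.

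The upstream sequences of the 3 changed ADAMTSL genes are shown because calcineurin is known for activating NFAT transcription factors, whose binding sequences include TGGAAA. Each line gives the 250 bases before the annotated start, 5′ to 3′ in the direction of the gene, with CpG dinucleotides in capitals (RefSeq, GRCm38.p6).
Adamtsl3: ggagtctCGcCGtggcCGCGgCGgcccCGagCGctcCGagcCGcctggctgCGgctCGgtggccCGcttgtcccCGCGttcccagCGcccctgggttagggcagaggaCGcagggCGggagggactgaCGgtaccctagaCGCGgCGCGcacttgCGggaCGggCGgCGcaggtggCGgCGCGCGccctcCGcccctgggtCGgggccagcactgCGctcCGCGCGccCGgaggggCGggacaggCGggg
Adamtsl2: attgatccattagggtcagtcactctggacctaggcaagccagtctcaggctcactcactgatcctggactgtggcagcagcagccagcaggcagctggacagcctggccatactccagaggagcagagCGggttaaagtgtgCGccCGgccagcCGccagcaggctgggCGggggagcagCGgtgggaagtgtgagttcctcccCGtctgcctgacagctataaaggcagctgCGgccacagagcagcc
Adamtsl4: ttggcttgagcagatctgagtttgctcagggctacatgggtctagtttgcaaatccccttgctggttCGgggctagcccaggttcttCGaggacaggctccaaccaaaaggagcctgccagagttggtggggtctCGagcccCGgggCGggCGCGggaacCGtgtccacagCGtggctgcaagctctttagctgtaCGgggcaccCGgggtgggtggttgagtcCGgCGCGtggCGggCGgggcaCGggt
The windows are chr7:82335444-82335693 (plus) for Adamtsl3, chr2:27079129-27079378 (plus) for Adamtsl2 and chr3:95687918-95688167 (minus) for Adamtsl4. They held 39, 8 and 17 CpG, where the median of 32851 promoter windows is 6, and Adamtsl3 held more than 98.4% of them. Their GC content was 80%, 62.8% and 64.4%, against a median of 52.4%. The shares of all windows given next are therefore not matched for base composition. From 250 bases before to 50 after the start, TGGAAA on either strand occurred in 0 of the 3, and in 21.4% of all windows. The AP-1 sequence TGANTCA, which reads the same on both strands and cannot overlap TGGAAA, occurred in 0 of the 3 and in 7.81% of all windows. Windows were available for 19 of the 30 tested members, and of their 20 windows 1, that of Adam1a, held TGGAAA and 0 held TGANTCA. A match or its absence in these letters is a description of the window and says nothing of a factor.

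Among the ADAMTS proteases, Adamts16 (ENSMUSG00000049538, chromosome 13, 70727802 to 70841811, minus strand) rose. It stood at 7.61, 4.50, 10.3 and 9.06 CPM in Control replicates 1 to 4 and at 33.5, 16.8, 18.3 and 17.4 CPM in KO replicates 1 to 4. The groups did not overlap, and KO replicate 1 was far above the other KO libraries, which lay close together. The log2 fold change was 1.46 ± 0.30 (SE, edgeR adjusted p = 0.041). Without KO replicate 1 it was 1.15 with an adjusted p of 0.0808. The call was also lost without any of Control replicates 1 to 4 and without KO replicates 2 or 4, with adjusted p from 0.0648 to 0.108. It was lost too in a fit that included the form of each file's name (0.0736) and with the animal-number block (0.111).

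Adamts3, which cuts the amino-terminal propeptide from procollagen and activates VEGF-C, and Adamts7, which cuts the cartilage matrix protein COMP, had lower values in every KO library but did not pass. Adamts3 stood at 1.80, 1.76, 1.78 and 3.66 CPM in Control and at 0.926, 0.81, 0.708 and 0.902 CPM in KO, a log2 fold change of -1.41 ± 0.33 (edgeR adjusted p = 0.0679). Adamts7 stood at 1.41, 1.54, 1.72 and 5.96 CPM in Control and at 0.72, 0.81, 0.905 and 0.551 CPM in KO, a log2 fold change of -1.81 ± 0.51 (edgeR adjusted p = 0.123). In both, Control replicate 4 was well above the other Control libraries. DESeq2 called both lower (adjusted p = 0.00448 and 0.0126). Of the 6282 exon bases of Adamts7, 122 are shared with Tbc1d2b on the opposite strand, which held 737% as many counts. Without a stated strand setting, the reads in these shared bases cannot be told apart.

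The proteoglycan-cutting enzymes Adamts1, Adamts5, Adamts9 and Adamts15 did not pass, and their groups overlapped. Adamts1 stood at 2.39, 18.5, 9.51 and 8.26 CPM in Control and at 9.28, 6.28, 11.9 and 5.41 CPM in KO (log2 -0.24 ± 0.49, edgeR adjusted p = 0.838). Adamts15 had a log2 fold change of -0.54 ± 0.42 and Adamts9, whose exons overlap the less abundant A730049H05Rik on the opposite strand, one of 0.27 ± 0.27. For the microfibril-associated Adamts6 and Adamts10 the values were 0.44 ± 0.30 and 0.06 ± 0.22. The direction of Adamts1 turned without Control replicate 2, and those of Adamts5, Adamts9 and Adamts10 turned under other settings.

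No tested ADAM gene passed the threshold, although Adam17, Adam12 and Adam9 had groups that did not overlap. Adam17, the sheddase that releases TNF and several EGF receptor ligands, stood at 63.1, 59.4, 60.8 and 56.7 CPM in Control and at 75.8, 76.4, 68.0 and 88.9 CPM in KO. Every KO library was above every Control library, by a log2 fold change of 0.36 ± 0.11 (edgeR adjusted p = 0.154). Its exons share 311 bases with Iah1 on the opposite strand, a gene with 99.0% as many counts. Adam9, a membrane protease with several reported matrix and receptor substrates, stood at 163, 194, 179 and 186 CPM in Control and at 143, 131, 151 and 160 CPM in KO. The gap between the groups was small (log2 -0.31 ± 0.11, edgeR adjusted p = 0.248). Adam12, which can release HB-EGF, had 17 counts over the Control and 87 over the KO libraries. It stood at 0.0488, 0.0481, 0.261 and 0.451 CPM in Control and at 0.638, 0.887, 0.551 and 0.952 CPM in KO (log2 1.99 ± 0.64, edgeR adjusted p = 0.188).

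Adam10, the sheddase of Notch receptors and of the precursor of EGF, stood at 46.1, 54.8, 56.5 and 49.1 CPM in Control and at 55.2, 52.1, 63.7 and 60.4 CPM in KO, with overlap (log2 0.16 ± 0.11, edgeR adjusted p = 0.536). Adam15 stood at 27, 26.1, 23.4 and 35.5 CPM in Control and at 23.4, 22.6, 26.6 and 23.3 CPM in KO, with overlap (log2 -0.22 ± 0.14). The non-catalytic Adam22, a receptor for the secreted LGI proteins of the nervous system, stood at 11.9, 14.2, 10.4 and 15.1 CPM in Control and at 17.9, 13.7, 19.8 and 16.1 CPM in KO. Its groups overlapped (log2 0.38 ± 0.17, unadjusted p = 0.0428, edgeR adjusted p = 0.338). Adam1a stood at 26.4, 24.2, 29.6 and 20.1 CPM in Control and at 26.3, 28, 27.7 and 24.7 CPM in KO (log2 0.09 ± 0.13). Adam1a shares 4779 exon bases with Gm42878 on the same strand, a gene with 99.3% as many counts. It also shares 1805 with Mapkapk5 on the same strand (100.4% as many counts). With Tmem116 on the opposite strand (530.0% as many counts) it shares 848, so the level of Adam1a is uncertain. Of the remaining tested ADAMs, Adam11 held 656 counts over all libraries, Adam32 113 and the leukocyte-associated Adam8 116. Their log2 fold changes were 0.14 ± 0.28 for Adam11, 0.62 ± 0.66 for Adam32 and 0.83 ± 0.64 for Adam8.

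The MMP genes were low throughout, and no tested one passed. Mmp14, the membrane enzyme that activates the MMP2 precursor, stood at 6.54, 6.18, 5.12 and 7.41 CPM in Control and at 6.32, 4.67, 5.86 and 10.1 CPM in KO. The groups overlapped and the log2 fold change was 0.09 ± 0.25 (edgeR adjusted p = 0.882), turning negative without KO replicate 4. Its relative Mmp15 stood at 1.12, 0.89, 1.57 and 1.60 CPM in Control and at 3.46, 1.54, 1.02 and 3.76 CPM in KO. KO replicates 1 and 4 were high and the other KO libraries were within the Control range (log2 0.93 ± 0.44, edgeR adjusted p = 0.382). The gelatinase Mmp2, with 45 counts over the Control and 37 over the KO libraries, stood at 0.293, 0.265, 0.418 and 1 CPM in Control and at 0.391, 0.116, 0.433 and 0.2 CPM in KO, with overlap (log2 -0.71 ± 0.58). The log2 fold changes of the stromelysin Mmp11, the membrane-anchored Mmp23 and the epilysin Mmp28 were 0.23 ± 0.40, -0.60 ± 0.47 and 0.25 ± 0.46. Mmp11 exons overlap those of Chchd10, a far more abundant gene on the opposite strand.

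Timp3 was the most abundant member by group mean, in CPM and per length, though per length Adam9 exceeded it in KO replicate 4. It held 37.9% to 68.3% of the counts of all 83 members in a library. It stood at 392, 1058, 939 and 759 CPM in Control replicates 1 to 4 and at 621, 433, 742 and 285 CPM in KO replicates 1 to 4. The groups overlapped, with Control replicate 1 and KO replicates 2 and 4 low. The log2 fold change was -0.60 ± 0.34 (SE, edgeR adjusted p = 0.459), with an exact two-sided permutation p of 0.2 on the CPM values. Timp2, the cofactor of MMP14 in MMP2 activation, stood at 2.63, 4.21, 3.81 and 4.76 CPM in Control and at 2.90, 1.81, 4.8 and 1.20 CPM in KO. Its groups overlapped (log2 -0.52 ± 0.40, edgeR adjusted p = 0.577).

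Per length, as CPM per kb of exon in Control (mean ± SD, n = 4), Timp3 stood at 96.7 ± 35.7, Adam9 at 43.9 ± 3.17, Adam10 at 10.5 ± 0.991 and Adam17 at 8.39 ± 0.37. Below these came Adamtsl2 at 5.96 ± 1.01, Adam15 at 4.55 ± 0.854 and Adam1a at 3.34 ± 0.535. The 4 Control values of the first 4 genes did not overlap from one gene to the next, though the lowest of Timp3 (48.1) was close to the highest of Adam9 (47.2). Those of Adamtsl2 and Adam15, and of Adam15 and Adam1a, overlapped. The untested Adamtsl1 and Adamtsl5 had 20 and 40 counts over all libraries. In KO, Adamtsl2 was at 2.11 ± 0.649 CPM per kb and Adamts16 at 3.15 ± 1.17, against 1.15 ± 0.368 for Adamts16 in Control. Adamtsl3, at 1.16 ± 0.438 in Control and so near Adamts16 there, was at 0.0216 ± 0.00754 in KO.

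**Figure D3:**
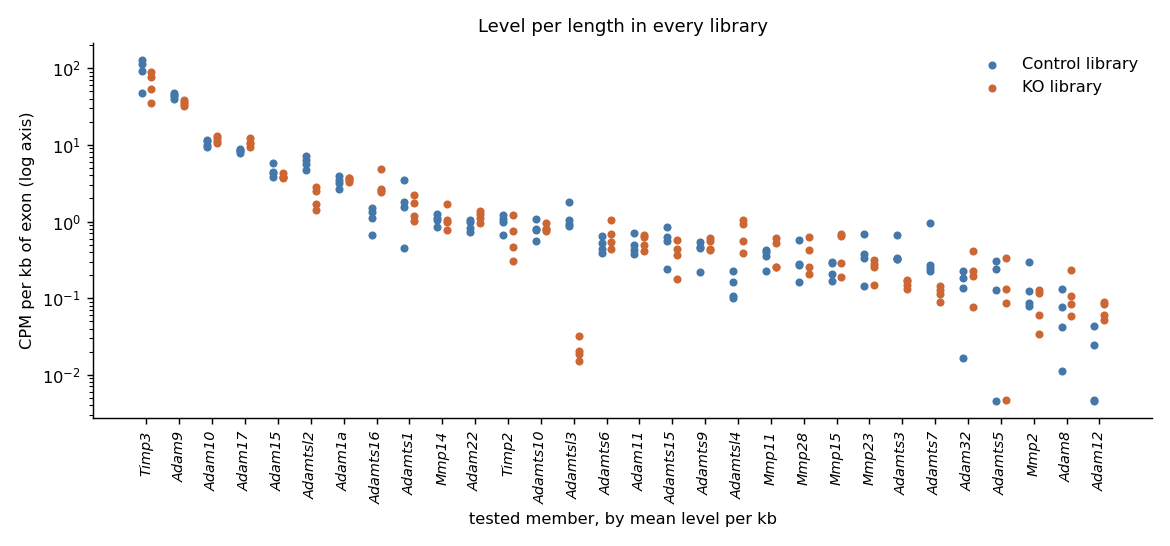
CPM per kb of exon on a log axis for each tested member in each Control (blue) and KO (orange) library, ordered by the mean over the 8 libraries. Timp3 and Adam9 lead, and the KO values of Adamtsl3 lie far below its Control values of 1.16 on average.

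Some members followed the libraries rather than the groups, and markers of other kidney cells moved with them. The 7 proximal tubule markers, among them Slc34a1 and Lrp2, summed to 1108, 4101, 3500 and 2590 CPM in Control replicates 1 to 4 and to 2528, 1772, 2609 and 1140 CPM in KO replicates 1 to 4. Within each group Timp3 had the same order of libraries as this sum. Adamts5, an aggrecan-cutting enzyme, stood at 0.0488, 2.60, 1.36 and 3.3 CPM in Control and at 1.40, 0.925, 3.62 and 0.0501 CPM in KO. Its lowest values, 1 count each, were in Control replicate 1 and KO replicate 4. The 5 podocyte markers were lowest in the same libraries, at 5.95, 41.6, 37.2 and 125 CPM in Control and 28.2, 20.2, 81.9 and 2.1 CPM in KO. The endothelial marker sums were lowest there too, at 22.8 CPM in Control replicate 1 and 17.5 CPM in KO replicate 4. The part of these cells in the Timp3 and Adamts5 values was not tested. Leaving out both libraries gave log2 fold changes of -0.62 for Timp3 and -0.30 for Adamts5, -1.31 for Adamtsl2 (edgeR adjusted p = 0.0425) and -6.01 for Adamtsl3 (0.00174). Adamtsl4 and Adamts16 did not pass then (2.04, adjusted p = 0.102, and 1.55, adjusted p = 0.104).

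**Figure D4:**
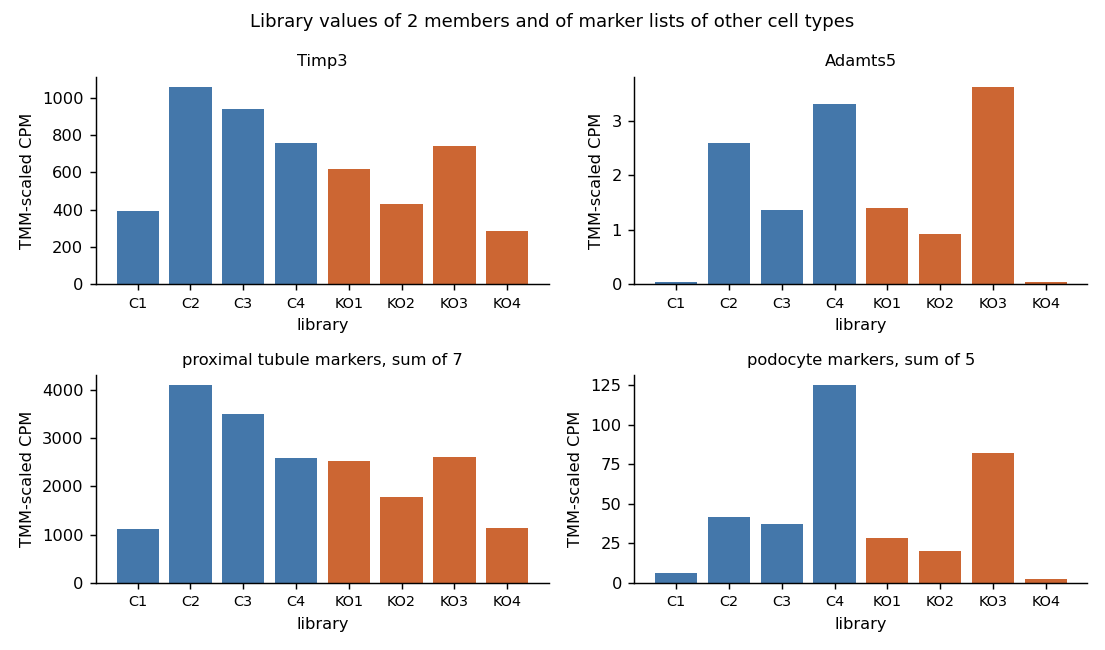
TMM-scaled CPM per library of Timp3 and Adamts5 (upper panels) and of the summed proximal tubule and podocyte markers (lower panels), Control in blue and KO in orange. In all 4 panels C1 and KO4 are the 2 lowest libraries, at 392 and 285 CPM for Timp3.

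Summed by family, the ADAM genes gave 363 ± 15.5 CPM over Control libraries against 355 ± 21.7 CPM over KO libraries (SD). The ADAMTS sum was 47.3 ± 12.8 and 56.9 ± 10.8 CPM, and the MMP sum 12.2 ± 2.82 and 14.1 ± 3.86 CPM. The ADAMTSL sum was 59.5, 46.3, 52.8 and 72.0 CPM in Control and 24.8, 18, 22.5 and 16.1 CPM in KO. Most of that sum is Adamtsl2, so it repeats that gene's difference.

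Genes that work with these families were read from 4 lists. Of 16 tested sheddase partners and regulators, 0 rose and 1 fell, the Wnt antagonist Sfrp1, which also inhibits ADAM10. It fell from 1228 ± 241 to 328 ± 87.8 CPM (log2 -1.90 ± 0.22, edgeR adjusted p = 0.00503) and kept its call under all 18 alternatives. At an unadjusted p under 0.05 the list held 1 higher and 2 lower genes, where 7.80% and 6.13% of all genes did so. DESeq2 gave 0 and 2 (2.95% and 2.27% of all genes) and limma-voom 1 and 1 (1.96% and 1.59%). The median over the list was 0.02, against -0.02 over all genes. Of 26 tested substrates of ADAM10 or ADAM17, 0 rose and 1 fell, the klotho gene Kl (log2 -1.91 ± 0.27, adjusted p = 0.0128). Its call was lost with the animal-number block (edgeR adjusted p = 0.0594) and without KO replicate 2 (0.0584), which left 0 calls in the list. At an unadjusted p under 0.05 there were 8 higher and 3 lower, with DESeq2 4 and 2 and with limma-voom 2 and 2, to be read against the same shares of all genes. The EGF precursor gene Egf averaged 6941 ± 1007 CPM over the Control libraries and 2702 ± 1215 CPM over the KO libraries and did not pass (log2 -1.36 ± 0.31, edgeR adjusted p = 0.0555). Nrg1, in the same list, went the other way and was as close to the threshold. It averaged 9.73 ± 5.07 CPM in Control and 34.1 ± 14.7 CPM in KO, with overlap (log2 1.79 ± 0.40, edgeR adjusted p = 0.0552). The median of that list was 0.12.

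Of 25 tested matrix substrates of ADAMTS and MMP proteases, 2 rose and 0 fell. These were the basement membrane proteoglycan Agrn (log2 1.09 ± 0.22, edgeR adjusted p = 0.0407) and the matrix glycoprotein Thbs1 (0.88 ± 0.18, adjusted p = 0.0413). The list's median log2 fold change was 0.64, and at an unadjusted p under 0.05 13 members were higher and 0 lower, against 7.80% and 6.13% of all genes. DESeq2 called 8 of the 25 higher and limma-voom 5, where 2.95% and 1.96% of all genes were called higher, both with 0 of the list lower. Agrn kept its call under 8 of the 18 alternatives and Thbs1 under 6, and without Control replicate 1 and KO replicate 4 together neither passed (edgeR adjusted p = 0.0623 and 0.0954). Both were also lost on leaving out any single library, except that Agrn passed without KO replicate 3. Of 23 tested genes listed as other matrix proteases and inhibitors, the peptidase Mme rose and the serine protease Htra4 fell. Loxl2, a collagen cross-linking enzyme that is neither protease nor inhibitor, was also listed and fell, giving 1 higher and 2 lower in all. Mme went from 146 ± 23.8 to 263 ± 16.3 CPM (log2 0.85 ± 0.14, adjusted p = 0.0169) and Htra4 from 11.2 ± 6.82 to 0.348 ± 0.184 CPM (log2 -5.05 ± 0.60, adjusted p = 0.00574). Loxl2 went from 10.8 ± 5.08 to 1.30 ± 0.772 CPM (log2 -3.05 ± 0.45, adjusted p = 0.0142), and the list's median was -0.22. With the animal-number block none of the 3 passed (edgeR adjusted p = 0.0744 for Mme, 0.0579 for Htra4 and 0.0579 for Loxl2). Loxl2 was also lost without KO replicate 2 (0.0584), and Mme without Control replicate 4 (0.0668), KO replicate 2 (0.0694) or KO replicate 4 (0.0584). At an unadjusted p under 0.05 the list held 5 higher and 3 lower genes, where 7.80% and 6.13% of all genes did so. DESeq2 gave 1 and 2 (2.95% and 2.27% of all genes) and limma-voom 1 and 4 (1.96% and 1.59%).

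The remaining 53 members had too few counts to be tested and held 557 of the 254037 member counts. Of these, 23 had 0 counts in all libraries, which allows a level of up to 0.0137 CPM over the pooled libraries (3 counts, counting error only). They included Timp4, Adamts14, Mmp1b, the stromelysins Mmp3 and Mmp10, and many ADAMs known from the testis. The 9 MMP genes clustered on chromosome 9 (7272514 to 7699585) held 88 counts together, and the matrilysin Mmp7 held 7. Timp1, a common injury-response gene, held 4 counts over the 8 libraries. The gelatinase Mmp9 had 0 counts in all 4 Control libraries and 2, 1, 1 and 37 counts in KO replicates 1 to 4. KO replicate 4 thus held nearly all of its 41 counts. The highest untested member was Adam5 with 79 counts, of which 27 were in KO replicate 4 and 22 in KO replicate 2.

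**Figure D5:**
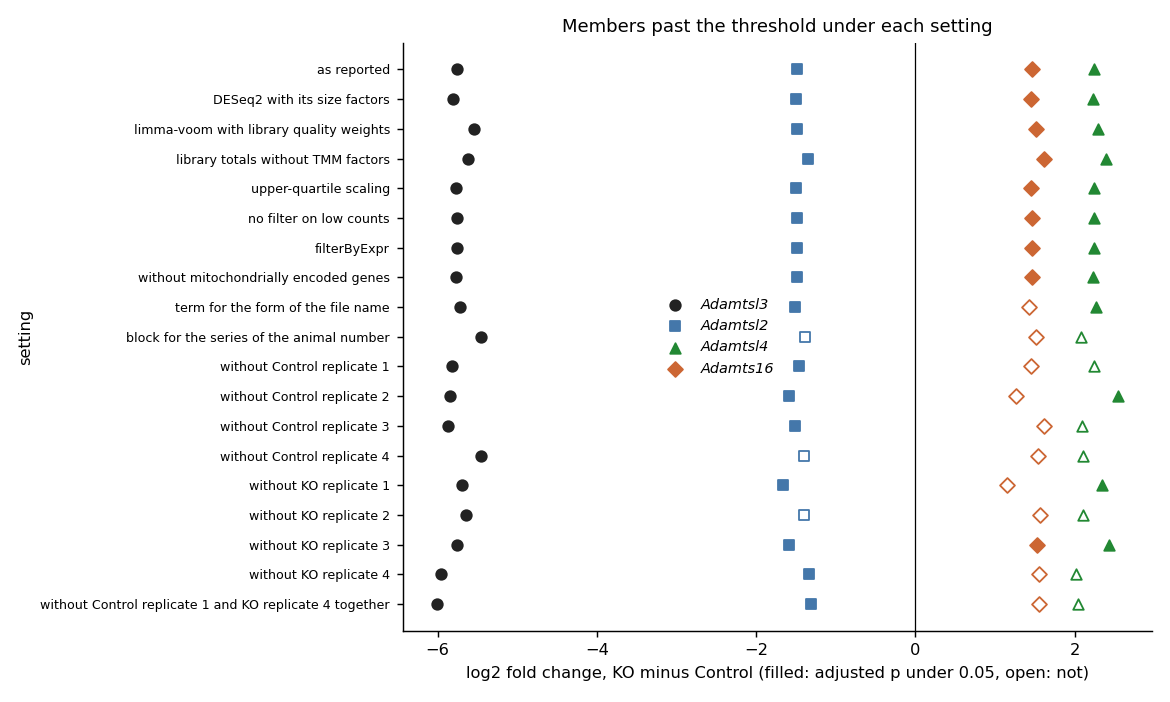
Log2 fold change, KO minus Control, of Adamtsl3, Adamtsl2, Adamtsl4 and Adamts16 as reported and under 18 alternative settings; filled symbols passed an adjusted p of 0.05 and open ones did not. Adamtsl3 is filled in every row, Adamtsl2 in 15 of the 18, Adamtsl4 in 11 and Adamts16 in 8, and no value crosses 0.

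Within the series of animal numbers that held both groups, the 4 genes kept their directions. In the series with 2 Control and 3 KO libraries the log2 ratios of mean CPM were -5.32 for Adamtsl3, -1.47 for Adamtsl2, 2.26 for Adamtsl4 and 1.24 for Adamts16. In the series with 1 library of each they were -5.80, -1.18, 1.78 and 2.14. Control replicate 4 stood alone in its series, so it added nothing to the genotype comparison in the fit with the animal-number block. Among libraries whose file names carried an index sequence, 1 of each group, the ratios were -5.63, -0.76, 1.29 and 2.90, and among the other 3 of each -5.78, -1.76, 2.68 and 0.96.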

How the data were processed

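Reads per Ensembl mouse gene were deposited by the authors as raw counts, without normalization. Tools named per the submitters' processing notes are STAR 2.7.4a, fastp 0.20.0 and bcl2fastq 2.20, with build GRCm38.p6. The sources used here do not name the counting program, its annotation release or its strand setting. Names, exons and coordinates came from GENCODE vM21 (GRCm38), which named 42347 of 42416 identifiers; the other 69 held 0.0199% of counts.

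Genes with at least 10 counts in at least 4 libraries were tested in R 4.3.3 by the quasi-likelihood F test of edgeR 4.0.16 (two-sided), with TMM scaling, genotype as the single factor and Benjamini-Hochberg adjustment. Levels are CPM on TMM-scaled library sizes. Standard errors are the fold change over the square root of F. The test was also run on simulated counts, drawn without differences in cell content between libraries, and that outcome is not given here. Single values used exact permutation over 70 splits (smallest p 0.0286). Libraries of 1 group differed by more than sampling noise; whether animals were littermates is not given. Alternatives were DESeq2 1.42.0, limma 3.58.1 voom with quality weights, other scalings and filters, no mitochondrially encoded genes, terms for file-name form and animal-number series, and each library left out, with the tested genes kept fixed.

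Members and lists were chosen with earlier results of these data known. Library values and statistics are given for members past the threshold, without overlap between groups or with an unadjusted p under 0.05, library values and fold change for the 10 most abundant per kb and for set family members, and ranges, counts or fold changes for the rest. Library values of other members (Mmp15, Adamts5, Adam5) and the values of Egf and Nrg1 were chosen after they were seen. Other list genes are named where they passed. The zinc-site search, planned on proteins, was run on coding sequences. A planned ranking of genes most like Adamtsl3 named 9 genes where fewer than 6 were required, and is not reported.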

Additional observations from a re-analysis of the deposited data

Results flagged for a closer look

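In 5 of 77 groups of 4 libraries, a single library lay so far from the other 3 that its gap to the nearest of them, divided by the group's range, exceeded Dixon's 95% critical value. Chance flags about 1 in 20 groups.

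Adamts16 stood at 33.5 CPM in KO replicate 1, where the other KO libraries lay between 16.8 and 18.3 CPM. Control replicate 4 was high in 3 members: Adamts3 at 3.66 CPM against 1.76 to 1.80, Adamts7 at 5.96 CPM against 1.41 to 1.72, and Adamtsl3 at 14.0 CPM against 6.79 to 8.0. In KO replicate 4 Mmp9 stood at 1.85 CPM, and KO replicates 1 to 3 lay between 0.0386 and 0.0412 CPM.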

How the results depend on the processing

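Of the 4 members past the threshold, Adamtsl3 kept its call under all 18 settings. Members called higher and lower, 2 and 2 as reported, numbered 1 and 2 in a fit that included file-name form, 0 and 1 with the block for the animal-number series, 2 and 4 with DESeq2, and 0 and 2 without Control replicate 1 and KO replicate 4 together, a setting added after the data were seen. Leaving out 1 library gave 0 to 2 higher and 1 to 2 lower members. Over all genes, 177 higher and 121 lower calls as reported became 426 and 327 with DESeq2, 283 and 229 with limma-voom, 105 higher with the file-name term, 5 and 24 with the block, and 52 and 59 without that pair of libraries. Leaving out 1 library gave 15 to 244 higher and 21 to 127 lower calls. Without TMM factors the median of all genes moved from -0.02 to 0.13, and 73.0% of calls were higher instead of 59.4%.

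Some log2 fold changes turned, none of them past the threshold. On leaving out 1 library, Adam1a ran from -0.0030 to 0.18, Adamts1 from -0.57 to 0.30, Adamts5 from -1.15 to 0.14, Adamts10 from -0.09 to 0.23, Mmp11 from -0.04 to 0.41, Mmp14 from -0.17 to 0.23 and Mmp28 from -0.10 to 0.67. With the block Adam1a was -0.0048 and Adamts5 0.44, and with limma-voom Adam32 was -0.0023. Without Control replicate 1 and KO replicate 4 together, Adam11 (-0.01), Adam32 (-0.20), Adamts9 (-0.04) and Mmp14 (-0.15) turned. The cause was not tested. No paired analysis was possible because the labels give no replicate numbers; those used here follow the order of deposit and only name libraries, and the block is by series of animal number. Members under about 1 CPM, such as Adam12 and Mmp2, rest on few counts a library.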
